A study of Mus musculus with 24 samples.

Results

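Dcn, Lum, Bgn and Fmod encode decorin, lumican, biglycan and fibromodulin, small leucine-rich proteoglycans of the connective tissue matrix. They were taken as the probe sets whose transcript identifier maps to these genes, and each of the 4 genes had 1 probe set of the 1246 on the array, which cover 909 named genes. The arrays measured RNA from whole mouse retina in 8 groups of 3. Normal mice (P347S- in the labels) were compared with mice that carry the P347S rhodopsin mutation as a transgene (P347S+), a line in which rod photoreceptors are lost slowly, at monthly ages from 1 to 4 months. The labels give the sex as unknown and name neither the strain nor the promoter of the transgene. Nothing in them ties each array to an animal of its own, so p-values here measure no more than the spread between samples, which may be technical. None of the 4 genes differed between genotypes at an adjusted p under 0.05. Between 50.1% and 56.3% of the variation of each gene lay between replicate arrays of the same group, near the median of 56.0% over all probe sets. The highest signals of the 4 genes fell in the same few arrays.

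Small leucine-rich proteoglycans are secreted proteins whose leucine-rich repeats bind fibrillar collagens and set the width and spacing of the fibrils. Decorin and biglycan carry chondroitin or dermatan sulfate chains, lumican and fibromodulin carry keratan sulfate chains. Decorin, biglycan and fibromodulin also bind TGF-beta. In the eye they are best known from the sclera, the cornea and vessel walls.

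All values below are signals as deposited, taken to be log2, so a difference of 1 is a factor of 2. Array medians lay between 5.15 and 5.34. The tissue label could be checked against few genes: of 13 rod markers only Gnb1 was measured (13.04 in normal and 12.83 in mutant retinas on average), of 14 ganglion, amacrine and bipolar cell markers only L1cam, and none of the cone, pigment epithelium or choroid markers. Of 15 other genes of the small leucine-rich family, 0 were measured, and of 32 further connective tissue and fibroblast markers 10 were, without Col1a1, Col1a2 or Col3a1. Of 14 Müller glia and astrocyte markers 5 were measured, Cd44, Fgf2, Vcam1, Icam1 and Lgals1. Gfap, Glul and Slc1a3 were not among them, so changes in this list cannot be assigned to those cells. In 3 arrays Grifin, a lens gene, read above 10 (replicate 2 of both genotypes at 2 months, and replicate 1 of the normal group at 4 months). The probe set of Dcn has a suffix that marks probes possibly shared with other transcripts. The mean signal of Lum (2.92) lay below 3.83, the 25th percentile of the probe sets' mean signals, and the files give no measure of background, so its presence in the tissue cannot be read from these values.

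The 4 genes lie at 3 places in the mouse genome. Dcn and Lum are neighbours on chromosome 10, followed by Kera and Epyc of the same family. Fmod lies on chromosome 1 beside Optc and Prelp, also of this family, and Bgn lies on chromosome X between Haus7 and Atp2b3. Of the 4 genes Bgn and Fmod matched the promoter table, and their promoters are shown for comparison of 2 members that lie on different chromosomes. The sequences are from RefSeq on build GRCm38.p6 and run from 250 bases before the transcription start to 50 bases after it. Bgn is at chrX:73483351-73483650 and Fmod at chr1:134037004-134037303, both on the plus strand. Capitals mark matches to the GC box.
Bgn: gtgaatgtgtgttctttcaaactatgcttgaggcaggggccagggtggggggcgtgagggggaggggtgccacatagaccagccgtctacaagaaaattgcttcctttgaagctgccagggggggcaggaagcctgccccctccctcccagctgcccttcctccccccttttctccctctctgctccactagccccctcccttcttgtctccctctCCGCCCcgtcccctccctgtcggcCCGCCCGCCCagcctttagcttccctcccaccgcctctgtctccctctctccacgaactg
Fmod: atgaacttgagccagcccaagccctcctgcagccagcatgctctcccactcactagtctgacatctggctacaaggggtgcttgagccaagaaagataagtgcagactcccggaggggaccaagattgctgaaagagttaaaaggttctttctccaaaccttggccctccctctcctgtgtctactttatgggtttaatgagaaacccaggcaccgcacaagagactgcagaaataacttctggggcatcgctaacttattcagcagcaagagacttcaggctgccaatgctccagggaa

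Both strands were searched for 4 short motifs: the TATA box (TATAAA), the GC box (GGGCGG), the AP-1 element (TGANTCA) and the CAGA element bound by Smad proteins (CAGACA). The Bgn promoter held 3 GC boxes, all on the minus strand, starting 34, 10 and 6 bases before the transcription start. The later 2 of them share bases with each other. It held none of the other motifs, and 63.7% of its bases were G or C. In the Fmod promoter none of the 4 motifs was found, and 51.0% of its bases were G or C. Among 32851 mouse promoters of the same length 13.6% held the TATA box, 35.7% the GC box, 7.81% the AP-1 element and 21.0% the CAGA element, and the median G and C content was 52.7%.

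Decorin is the member best known for binding collagen and TGF-beta. At 1 month Dcn read 3.77, 4.08 and 4.68 in normal replicates 1, 2 and 3 and 4.74, 4.48 and 3.95 in mutant replicates 1, 2 and 3. At 2 months it read 4.60, 6.45 and 6.90 in normal and 4.23, 4.49 and 4.78 in mutant retinas, in the same order. Genotypes overlapped at both ages, and at 2 months normal replicates 2 and 3 stood well above the other 4 arrays. At 3 months the values were 4.40, 4.81 and 5.14 in normal and 5.69, 5.09 and 5.87 in mutant retinas. At 4 months they were 4.52, 5.29 and 4.53 in normal and 4.27, 4.42 and 6.51 in mutant retinas. The mutant arrays were mostly the higher ones at 3 months, with a small overlap, and at 4 months a single mutant array was high while the other two were below all normal arrays.

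Lumican carries keratan sulfate and is needed for the clarity of the cornea. Lum read 2.73, 2.77 and 2.89 in normal retinas of 1 month and 3.07, 2.80 and 2.62 in mutant retinas. The 2-month values were 2.61, 3.52 and 3.75 in normal and 2.76, 2.77 and 2.79 in mutant retinas. As with Dcn, normal replicates 2 and 3 were the high arrays and normal replicate 1 was low, here the lowest of all 24 arrays. For 3 months they were 2.68, 2.64 and 3.03 in normal and 3.21, 2.84 and 3.57 in mutant retinas. At 4 months Lum read 2.70, 2.77 and 2.63 in normal and 2.78, 2.99 and 3.22 in mutant retinas. Every mutant array of 4 months was above every normal one, by a narrow gap, whereas genotypes overlapped at the other ages.

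Biglycan is the relative of decorin with paired chondroitin or dermatan sulfate chains, found in bone and vessel walls among other places. Bgn read 5.61, 5.58 and 5.91 in normal retinas of 1 month and 6.03, 5.68 and 5.81 in mutant retinas. At 2 months the signals were 5.57, 6.14 and 6.70 in normal and 5.67, 5.73 and 5.72 in mutant retinas. Again normal replicates 2 and 3 exceeded the mutant arrays and normal replicate 1 was below them. The 3-month arrays gave 5.46, 5.41 and 5.58 for normal and 5.70, 5.74 and 6.18 for mutant retinas. Those of 4 months gave 5.53, 5.58 and 5.51 for normal and 5.70, 5.36 and 5.89 for mutant retinas. Genotypes did not overlap at 3 months, with the mutant arrays higher, and overlapped at the other ages.

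Fibromodulin is a keratan sulfate proteoglycan of tendon, cartilage and sclera. Fmod read 5.35, 5.45 and 5.82 in normal retinas of 1 month and 5.63, 5.79 and 5.70 in mutant retinas. In the 2-month groups it read 5.49, 6.96 and 7.52 in normal and 5.94, 6.15 and 5.74 in mutant retinas. Normal replicates 2 and 3 were the highest of all 24 arrays. In the 3-month groups it read 5.78, 5.43 and 5.25 in normal and 6.50, 5.91 and 6.92 in mutant retinas. The 4-month groups read 6.66, 6.07 and 5.48 in normal and 6.36, 6.10 and 6.37 in mutant retinas. As for Bgn, all mutant arrays of 3 months were above all normal ones, and the other ages overlapped.

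**Figure D1:**
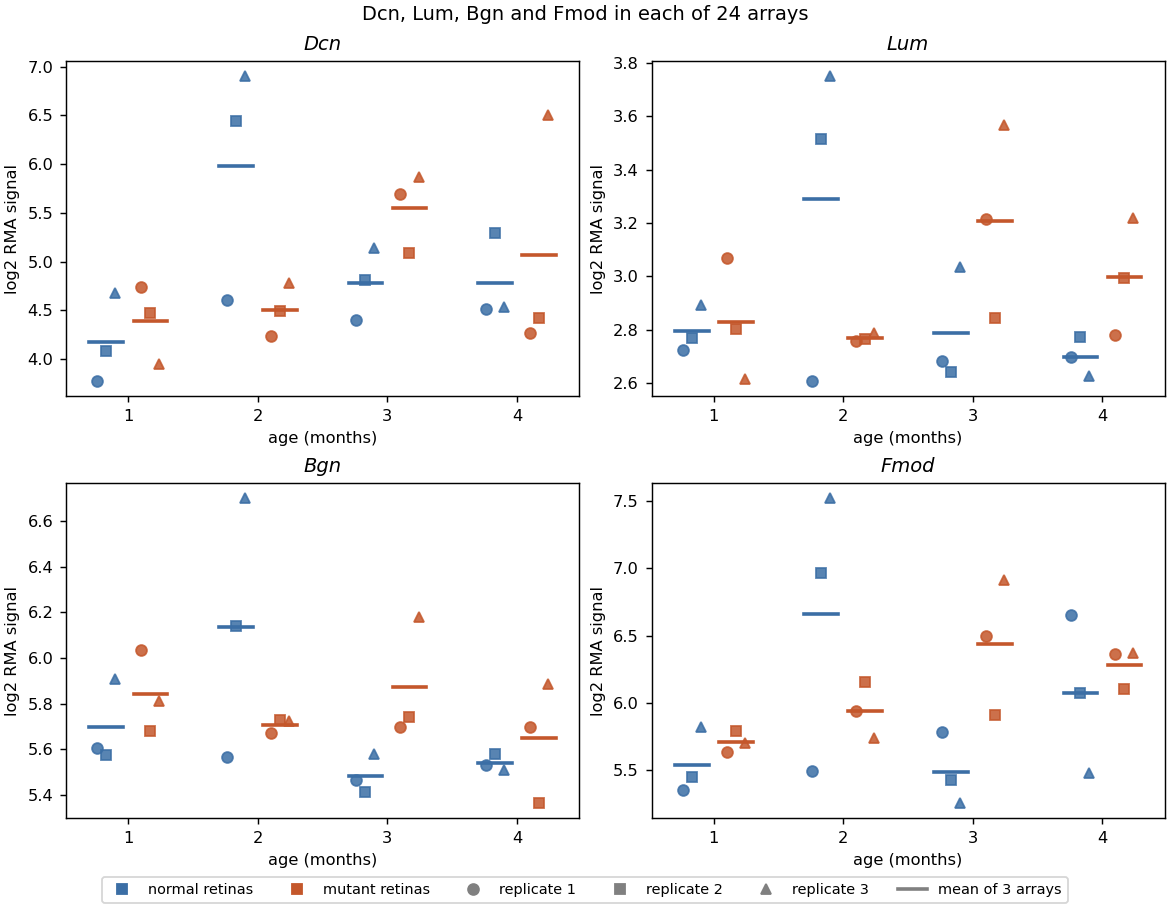
Log2 signal of Dcn, Lum, Bgn and Fmod (y axis, a scale for each gene) in each of the 24 arrays by age in months (x axis), with normal retinas in blue, mutant retinas in orange, a marker shape for each replicate number and a line for the mean of 3 arrays. Normal replicates 2 and 3 of 2 months stand high in every panel, and Bgn and Fmod of 3 months are the pairs of groups in which all mutant points lie above all normal points, besides Lum of 4 months.

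Ordered by group mean, all 4 genes began with the same pair of groups. For Dcn the highest mean was that of normal retinas of 2 months, 5.98 ± 1.22 (SD, n = 3), followed by mutant retinas of 3 months at 5.55 ± 0.41, and the lowest was that of normal retinas of 1 month at 4.18 ± 0.46. Lum had 3.29 ± 0.60 and 3.21 ± 0.36 in those leading groups and was lowest in normal retinas of 4 months, at 2.70 ± 0.07. For Bgn and Fmod the leading means were 6.14 ± 0.57 and 6.66 ± 1.05 in normal retinas of 2 months, and both were lowest in normal retinas of 3 months, at 5.48 ± 0.09 and 5.49 ± 0.27. In each gene all 7 pairs of neighbours in this order overlapped. Groups sorted by their means tend to overlap with the next one, so no conclusion is drawn from this.

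The comparison of genotypes asks whether the matrix genes move with the loss of rods. Over the 4 ages together (12 arrays against 12), Fmod had the largest of the 4 differences, mutant minus normal, at 0.15 ± 0.18 (limma estimate ± SE), with an adjusted p of 0.560, and it ranged from 0.0069 to 0.26 with single arrays left out. The difference of Lum was 0.06 ± 0.11 (limma adjusted p = 0.716) and that of Bgn 0.05 ± 0.10 (0.712). Dcn had -0.06 ± 0.26 (limma adjusted p = 0.891), the only one with a lower mean in mutant retinas. None of the 4 genes passed, where 22.6% of all probe sets did, and none had an unadjusted p under 0.05, where 35.6% did. The 95% intervals were -0.59 to 0.48 for Dcn, -0.16 to 0.28 for Lum, -0.15 to 0.26 for Bgn and -0.22 to 0.52 for Fmod. Differences within these bounds are compatible with the values of these arrays. The exact test that permutes genotype within each age gave 2-sided p-values of 0.870, 0.669, 0.667 and 0.508 for Dcn, Lum, Bgn and Fmod. In whole tissue fewer cells of a type and less RNA per cell cannot be told apart.

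The result over the 4 ages rested on the 2-month arrays. Without both high normal arrays of 2 months, a choice made after seeing the data, Fmod was higher in mutant retinas by 0.45 with an adjusted p of 0.0305 in limma. Without all 6 arrays of 2 months it was higher by 0.44 (limma adjusted p = 0.0370). Under the same choices Dcn changed sign, to 0.29 (limma adjusted p = 0.429) and 0.42 (0.229), and Lum was at 0.23 (0.0709) and 0.25 (0.0569). Bgn was at 0.20 (limma adjusted p = 0.0777) and 0.21 (0.0610). Of the 4 genes Fmod alone passed over the 4 ages in any alternative run, and it did so only with these arrays left out. Without the 3 arrays of high Grifin signal Fmod was at 0.24 (limma adjusted p = 0.380) and the other 3 genes lay between -0.03 and 0.09.

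**Figure D2:**
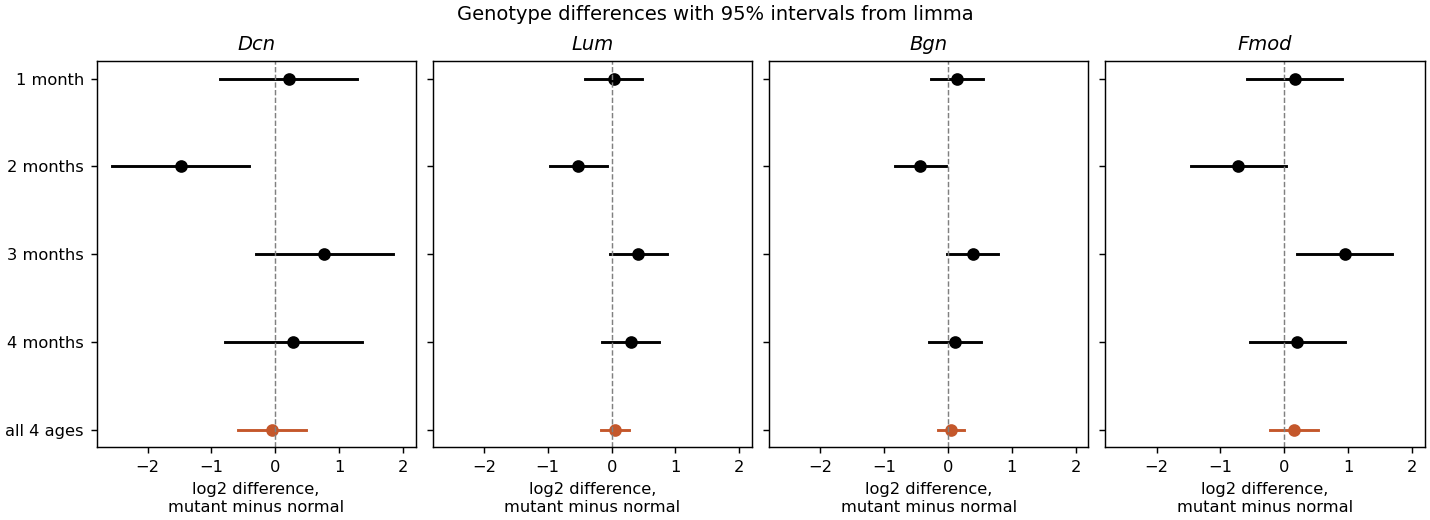
Log2 difference, mutant minus normal (x axis), of each gene at each age and over all 4 ages (rows), with 95% intervals from limma. The points lie right of 0 at 1, 3 and 4 months and left of 0 at 2 months in every panel, and the intervals over all 4 ages include 0.

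At single ages the direction was shared by the 4 genes. The mutant mean was higher in 12 of 12 gene and age combinations at 1, 3 and 4 months and lower in 4 of 4 at 2 months. As the genes vary together, these are not independent counts. No gene passed at any age in limma, with shares of probe sets called of 0.321% in the comparison of 1 month, 3.45% in that of 2 months, 12% in that of 3 months and 12.9% in that of 4 months. With 3 arrays against 3 an exact test of one age cannot go below p = 0.1.

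At 2 months the mutant means were lower for all 4 genes. Dcn was 2.79-fold lower, a log2 difference of -1.48 ± 0.51 (limma adjusted p = 0.126), and Fmod was 1.64-fold lower, at -0.72 ± 0.36 (0.362). Lum differed by -0.52 ± 0.21 (limma adjusted p = 0.224) and Bgn by -0.43 ± 0.19 (0.293). Unadjusted p-values under 0.05 were found for Dcn, Lum and Bgn, 3 of the 4 genes, against 14.4% of all probe sets. Groups overlapped in all 4 genes, while 17.4% of probe sets had no overlap at this age.

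Which arrays entered decided the outcome at 2 months. Without normal replicate 1 of 2 months all 4 genes passed in limma, with differences of -2.17 for Dcn (adjusted p = 0.00858), -0.86 for Lum (0.00565), -0.71 for Bgn (0.0136) and -1.30 for Fmod (0.00858). That run called 62 of all 1246 probe sets, against 43 with all arrays. Without normal replicate 3 the differences shrank, to -1.02 for Dcn, -0.29 for Lum, -0.15 for Bgn and -0.28 for Fmod, and none passed. Without both normal replicates 2 and 3 Dcn was at -0.10 and the sign turned for Lum (0.16), Bgn (0.14) and Fmod (0.45), with adjusted p from 0.920 to 0.976 over the 4 genes in limma. Leaving out mutant replicate 3 of 4 months, an array far from its group mean for Dcn, gave an adjusted p of 0.0450 for Dcn at 2 months. Without the 3 arrays of high Grifin signal the differences were -1.25 for Dcn, -0.41 for Lum, -0.44 for Bgn and -0.67 for Fmod, with adjusted p from 0.589 to 0.705 in limma. Same-numbered arrays of the genotypes deviated together at this age, but the labels do not say that numbers pair arrays. With the number within age as a block on all 24 arrays Dcn did not pass (limma adjusted p = 0.106), and 30 probe sets were called in place of 43. With the 6 arrays of 2 months alone and the block, a fit added after seeing the data, Dcn passed at an adjusted p of 0.0489 in limma, one of 16 probe sets called, where the 6 arrays alone without the block gave 2.

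At 3 months the mutant means were higher for all 4 genes. Fmod was 1.93-fold higher, a log2 difference of 0.95 ± 0.36 (limma adjusted p = 0.0849). Dcn differed by 0.77 ± 0.51 (limma adjusted p = 0.326), Lum by 0.42 ± 0.21 (0.189) and Bgn by 0.39 ± 0.19 (0.182). Fmod alone had an unadjusted p under 0.05, as did 29.7% of probe sets. Fmod and Bgn were the 2 genes without overlap, in a comparison where 32.6% of probe sets had none and 13.2% had none with the mutant arrays higher. Fmod passed without normal replicate 1 of 2 months (limma adjusted p = 0.0188) and without normal replicate 3 of 2 months (0.0483), arrays that bear on this age only through the shared estimate of the spread.

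Markers of other cells at 3 months differed from list to list. At this age 6.66% of all probe sets were called higher and 5.38% lower. Of 6 microglia and macrophage markers 4 rose, of 5 Müller glia and astrocyte markers 3, of 10 connective tissue markers 2 and of 8 endothelial and pericyte markers 0, and none fell. Their median log2 differences were 0.69, 0.82, 0.18 and -0.08, beside -0.06 over all probe sets, and the rod marker Gnb1 differed by -0.20 without passing. Over the 4 ages Gnb1 did pass, at -0.21 ± 0.06 (limma adjusted p = 0.0121). Its probe set may share probes with other transcripts. The mean of 6 microglia and macrophage markers lay between 5.41 and 5.98 in mutant and between 5.09 and 5.15 in normal arrays. That of 5 Müller glia and astrocyte markers lay between 6.45 and 7.03 against 5.67 and 5.99, and that of the 10 connective tissue markers that are not members between 6.24 and 6.51 against 5.89 and 6.04. The 8 endothelial and pericyte markers overlapped, with mutant arrays from 4.76 to 5.01 and normal ones from 4.83 to 5.02. Their part in the values of Fmod and Bgn was not tested.

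Differences were small at 1 and 4 months. At 1 month they ran from 0.03 ± 0.21 for Lum to 0.21 ± 0.51 for Dcn, with limma adjusted p from 0.921 to 0.990 over the 4 genes, and all overlapped where 22.1% of probe sets did not. At 4 months they ran from 0.11 ± 0.19 for Bgn to 0.30 ± 0.21 for Lum, with limma adjusted p from 0.425 to 0.794. Lum was the 1 gene without overlap at 4 months, where 30.0% of probe sets had none and 17.1% had none with the mutant arrays higher. Mutant replicate 3 of 4 months set the sign for Dcn, which was at -0.44 without it (limma adjusted p = 0.629).

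Whether the genotype difference changed with age was asked with limma's moderated F test. All 4 genes had unadjusted p-values under 0.05, which 14.4% of probe sets had, from 0.0241 for Lum to 0.0457 for Bgn. After adjustment none passed, with values from 0.275 to 0.335, and 0.321% of probe sets did. Without normal replicate 1 of 2 months all 4 passed in limma, at adjusted p of 0.0443 for Dcn, 0.0123 for Lum, 0.0381 for Bgn and 0.0123 for Fmod. This run called 31 of all 1246 probe sets, against 4 with all arrays. Without all 2-month arrays the adjusted p ranged from 0.850 to 0.968 in limma.

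Age alone was compared as 4 months minus 1 month within each genotype. In normal retinas Dcn differed by 0.60 ± 0.51 and Fmod by 0.53 ± 0.36, and Lum (-0.10 ± 0.21) and Bgn (-0.16 ± 0.19) had the opposite sign, with limma adjusted p from 0.894 to 1.00. No probe set at all was called there by limma (0%), and 7.38% had an unadjusted p under 0.05. In mutant retinas the differences were 0.68 ± 0.51 for Dcn, 0.17 ± 0.21 for Lum, -0.19 ± 0.19 for Bgn and 0.57 ± 0.36 for Fmod. Their adjusted p ran from 0.508 to 0.835 in limma, and 2.65% of probe sets were called. Fmod passed in mutant retinas when only the 6 arrays compared were fitted (limma adjusted p = 0.0309).

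Most of what set the 24 arrays apart for these genes lay between replicates. Replicate arrays of the same group carried 50.7% of the sum of squares of Dcn, 56.3% of Lum, 54.3% of Bgn and 50.1% of Fmod, near the median of 56.0% over all probe sets. Genotype carried 0.116% for Dcn, 0.877% for Lum, 0.882% for Bgn and 1.84% for Fmod, below the median of 8.81%. Age carried 21.7%, 8.98%, 17.8% and 20.6% in the same order, beside a median of 13%. The part that genotype and age carried only in combination was 27.6%, 33.9%, 27.1% and 27.5% in the same order, above the median of 12%. The size of the spread also differed from that of most probe sets, with a residual SD of 0.707 for Dcn, 0.286 for Lum, 0.259 for Bgn and 0.489 for Fmod against a median of 0.128. These SDs lay at the percentiles 99.4, 94.9, 93.1 and 98.7 of all probe sets.

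**Figure D3:**
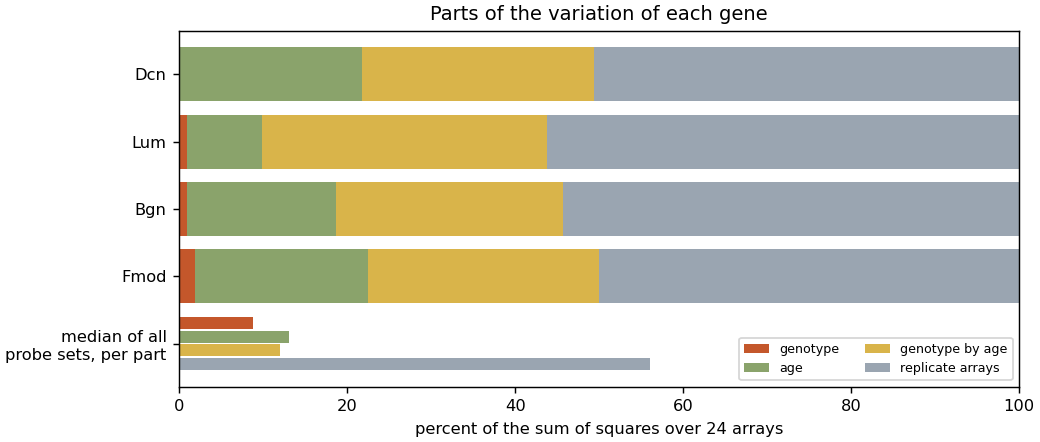
Percent of the sum of squares over 24 arrays (x axis) that lies between genotypes, between ages, in their combination and between replicate arrays, for each gene, with the median of all probe sets for each part below. The grey bar of replicate arrays fills about as much as all other parts together, and the bar of genotype is at most 1.84% in the 4 genes.

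The 4 genes were high in the same arrays. Normal retinas of 2 months replicate 3 ranked 1 of 24 for all 4 genes. Normal retinas of 2 months replicate 2 ranked 3, 3, 3 and 2 for Dcn, Lum, Bgn and Fmod, and mutant retinas of 3 months replicate 3 ranked 4, 2, 2 and 3. Mutant retinas of 4 months replicate 3 ranked 2, 4, 6 and 6. At the other end the genes parted: the lowest array was normal replicate 1 of 1 month for Dcn, normal replicate 1 of 2 months for Lum, mutant replicate 2 of 4 months for Bgn and normal replicate 3 of 3 months for Fmod.

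To see this apart from genotype and age, the deviations of the 24 arrays from their group means were correlated, with 100000 permutations within groups and Benjamini-Hochberg adjustment over the 6 pairs of genes. The neighbouring genes Dcn and Lum had the closest relation, with Pearson's r = 0.83 (permutation p = 2e-05, adjusted 0.00012) and Spearman's rho = 0.86 (permutation p = 1e-05, the smallest these permutations can give, adjusted 6e-05). Without the 2 arrays farthest from the median on the Dcn axis, normal replicate 1 of 2 months and mutant replicate 3 of 4 months, r was 0.77 (permutation p = 0.00017). Lum and Bgn had r = 0.82 (permutation p = 0.00735, adjusted 0.0147) and rho = 0.70 (permutation p = 0.00604, adjusted 0.0161). Without the farthest arrays, normal replicates 1 and 3 of 2 months, r was 0.66 (permutation p = 0.0449). Dcn and Bgn had r = 0.76 (permutation p = 0.00698, adjusted 0.0147) and rho = 0.67 (permutation p = 0.00804, adjusted 0.0161), and r = 0.53 (permutation p = 0.0370) without the 2 arrays named for Dcn.

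Relations of Fmod to the others rested on few arrays. For Bgn and Fmod r was 0.73 (permutation p = 0.0185, adjusted 0.0278) and rho 0.54 (permutation p = 0.0273, adjusted 0.0409). For Lum and Fmod r was 0.72 (permutation p = 0.0274, adjusted 0.0329) and rho 0.45 (permutation p = 0.0890, adjusted 0.103). Without normal replicates 1 and 3 of 2 months r fell to 0.40 and 0.36 for these pairs. The 1 array left in that group then has no deviation from its group mean, so the whole group drops out. Both relations thus rested on the normal arrays of 2 months, and the fall cannot be assigned to particular arrays among them. Dcn and Fmod missed the threshold, with r = 0.56 (permutation p = 0.0579) and rho = 0.42 (permutation p = 0.103), and r was 0.24 (permutation p = 0.420) without the 2 arrays farthest for Dcn. The deviations of the 4 genes followed those of the lens gene Grifin little, with r of -0.06 for Dcn, 0.08 for Lum, -0.07 for Bgn and 0.32 for Fmod.

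**Figure D4:**
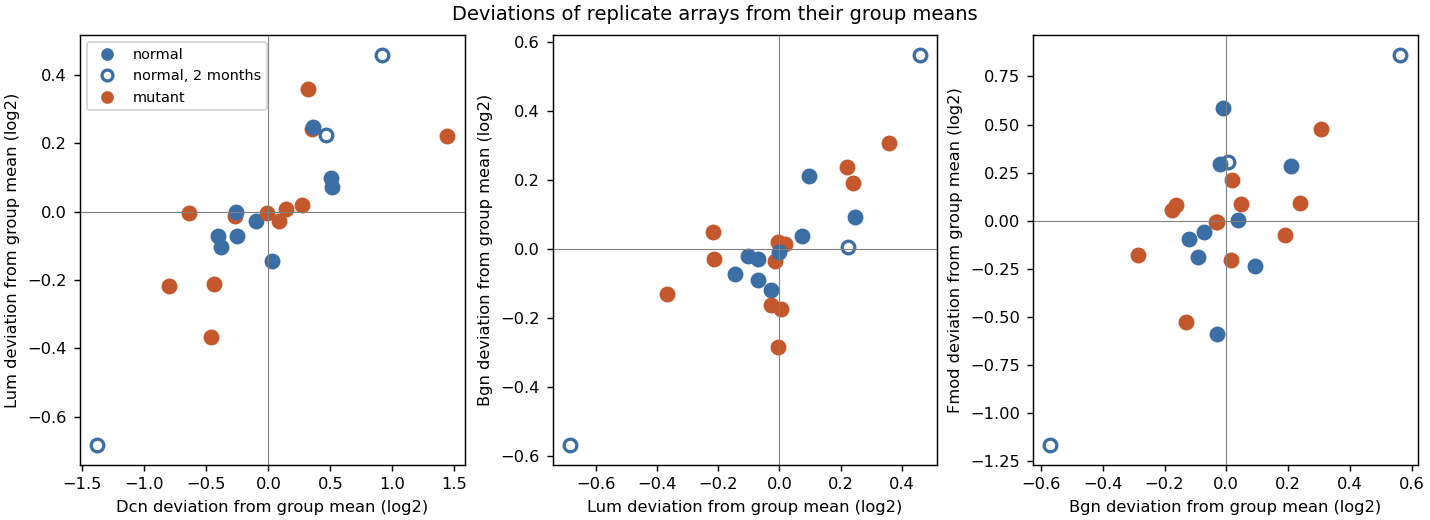
Deviation of each array from its group mean (log2) for Dcn against Lum, Lum against Bgn and Bgn against Fmod, with normal arrays in blue, those of 2 months as open circles, and mutant arrays in orange. Arrays line up along the diagonal in the Dcn and Lum panel, with r = 0.83, and in the Bgn and Fmod panel (r = 0.73) the open circles lie at both ends.

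Other genes deviated in the same arrays. For each member the 5 most alike of the 905 other named genes were taken by Pearson's r of the deviations over 24 arrays. For Dcn they were Igf2bp1, an RNA-binding protein (r = 0.76), the large proteoglycan versican, Vcan (0.74), Angptl2 (0.73), Tgfbr3, the proteoglycan co-receptor betaglycan (0.71), and Bmp2 (0.70). For Lum they were the heparin-binding growth factor midkine, Mdk (r = 0.87), Papss2, which makes the sulfate donor of glycan chains (0.83), Col18a1, a basement membrane collagen (0.82), Angptl2 (0.80) and Igf2bp1 (0.78).

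The list of Bgn began with Bmp2 (r = 0.84), followed by Mdk (0.82), Igf2bp1 (0.82), the lectin Clec18a (0.81) and the CMP-sialic acid transporter Slc35a1 (0.80). That of Fmod held Col18a1 (r = 0.93), Clec18a (0.92), Angptl2 (0.89), the collagen uptake receptor Mrc2 (0.86) and Galnt12, which starts O-linked glycans (0.84). The probe sets of Angptl2, Mdk, Papss2, Clec18a and Galnt12 may share probes with other transcripts. The mean signal of Igf2bp1 (3.73) lay below the 25th percentile of mean signals (3.83), as that of Lum did. As a background, r was above 0.5 for 3.31% of the other genes with Dcn, 5.75% with Lum, 6.96% with Bgn and 9.61% with Fmod, and the medians of r lay between -0.04 and 0.07. All these values share the 24 arrays, among them the high arrays of 2 months.

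None of these 12 genes passed over the 4 ages, with limma adjusted p from 0.0781 (Tgfbr3) to 0.963 (Igf2bp1). The deviations of the 4 members were each divided by their residual SD and then averaged. This scaled mean deviation had an r above 0.7 with 26 genes. Of these, 6 passed, all higher in mutant retinas (Il10rb, Igfbp5, Lamp2, Notch2, Fzd1 and Dhrs1), and the median log2 difference of the 26 was 0.08. The 6 are 23.1% of the 26. Of all probe sets 22.6% were called in this comparison, and 13.8% of all were called higher.

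Both high normal arrays of 2 months were set side by side with the other 22 arrays. Angptl2 read 6.54 and 6.96 in them and between 4.51 and 5.72 in the other 22 arrays, with 4.91 in normal replicate 1 of 2 months. Bmp7 read 6.35 and 6.58 in them, against a range of 5.26 to 6.09 and 5.60 in that array. Mdk read 8.56 and 8.91, against a range of 7.16 to 8.44 and 7.34. Igf2bp1, Clec18a, Mrc2, Mrc1, Bmp4 and Fmod itself were also above all other arrays in both. The gap was narrow for some, as for Mrc1, at 3.49 in replicate 3 against at most 3.48. Angptl2, Mdk, Igf2bp1, Clec18a and Mrc2 were chosen by r over these same arrays, and Bmp7, Mrc1 and Bmp4 after their values were seen. Their high values there are therefore not a separate result, and the share of all probe sets above the others in both was not counted. Other markers of connective tissue and vessels differed among themselves. Vcan read 4.66 and 4.61 and Igfbp5 9.67 and 9.54, above the medians of the other 22 arrays (3.64 and 9.02) and within their ranges. Pdgfrb read 5.61 and 5.44 within 5.09 to 5.69, and Pecam1 5.30 and 5.37 within 5.01 to 6.15. Pdgfra read 7.86 in replicate 2, the array of high Grifin signal, and 6.58 in replicate 3, beside a range of 6.61 to 8.14, and over the 24 arrays its deviations followed those of Grifin with r = 0.74. Cd34 read 4.76 and 4.95, below and near the low end of 4.84 to 5.93. Grifin was high in one of the arrays, at 11.33, and not in the other, at 6.36.

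Lists of related genes were then compared with the scaled mean deviation of the 4 members. Of the 10 connective tissue markers that are not members, Igfbp5 (r = 0.77) and Vcan (0.75) were above 0.5, and the median was 0.19. Over the 905 genes the median was 0.04 and 6.19% were above 0.5. The 8 endothelial and pericyte markers ran from -0.28 to 0.18 with a median of 0.02. Among 28 other proteoglycan core proteins 5 were above 0.5, Col18a1 (0.88), Tgfbr3 (0.84), Vcan (0.75), Sdc4 (0.74) and Gpc4 (0.52), and the median was 0.25. Among 11 TGF-beta ligands and receptors the BMP ligands Bmp2 (0.87), Bmp4 (0.76) and Bmp7 (0.74) were, with Tgfbr3, and the median was 0.29. The medians were highest for the 5 Müller glia and astrocyte markers (0.34) and the 6 microglia and macrophage markers (0.32), and in these lists only Mrc1, the macrophage mannose receptor, was above 0.5, at 0.58. Mrc1 averaged 3.27 in normal and 3.26 in mutant retinas, below the 25th percentile of mean signals (3.83), so its presence cannot be read either.

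**Figure D5:**
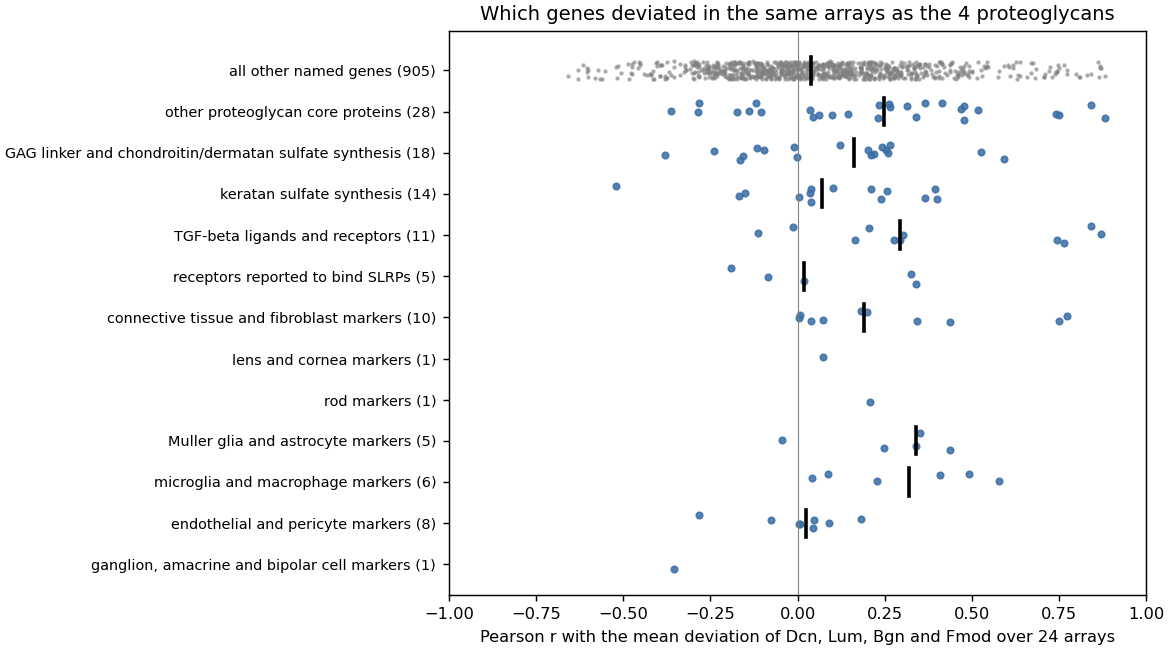
Pearson's r of each gene's deviations with the mean deviation of Dcn, Lum, Bgn and Fmod over 24 arrays (x axis), by list (rows, number of genes in brackets), with a bar for the median of each list of at least 5 genes and grey points for all 905 other named genes. Endothelial and pericyte markers reach at most 0.18, whereas several proteoglycan core proteins, BMP ligands, Igfbp5 and Vcan lie above 0.7.

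Other genes of the pathway did pass the test between genotypes. Over the 4 ages 13.8% of all probe sets rose in mutant retinas and 8.83% fell, with a median difference of -0.03. Of 28 other proteoglycan core proteins 8 rose and 1 fell, with a median of 0.04. The hyaluronan receptor Cd44 rose by 1.01 ± 0.25 (limma adjusted p = 0.00581), serglycin, Srgn, by 0.48 ± 0.09 (0.00045) and glypican Gpc3 by 0.46 ± 0.09 (0.00092). The deviations of Cd44 followed those of the lens gene Grifin with r = 0.88, and the part of lens signal in its rise was not tested. Agrin, Agrn, of basement membranes rose by 0.31 ± 0.07 (limma adjusted p = 0.00218). Gpc2 fell by 0.27 ± 0.06 (limma adjusted p = 0.00147). Vcan, the one core protein also counted as a connective tissue marker, differed by 0.09 ± 0.16 (limma adjusted p = 0.724).

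Enzymes of the chains that the members carry moved both ways. Of 18 genes of the linker and of chondroitin and dermatan sulfate 4 rose and 5 fell, with a median of -0.01. The sulfotransferase Chst3 fell by 0.55 ± 0.06 (limma adjusted p = 2.39e-06) and the polymerase Chsy1 by 0.25 ± 0.06 (0.0041). Ust, which sulfates uronic acid, rose by 0.39 ± 0.07 (limma adjusted p = 0.000195) and Chst11 by 0.25 ± 0.06 (0.00413). Of 14 genes of keratan sulfate 4 rose and 3 fell, with a median of -0.08. The extending enzyme B3gnt2 rose by 0.56 ± 0.07 (limma adjusted p = 4.19e-06), Fut8 by 0.25 ± 0.05 (0.00148), B4galt1 fell by 0.36 ± 0.05 (1.10e-05) and St3gal1 by 0.34 ± 0.07 (0.0015).

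Partners of the members were also measured. Of 11 TGF-beta ligands and receptors 2 rose and none fell, with a median of 0.15. These were the receptor Tgfbr2, by 0.64 ± 0.09 (limma adjusted p = 1.98e-05), and the ligand Tgfb2, by 0.29 ± 0.06 (0.00127). Of 5 receptors reported to bind proteins of this family 3 rose, the EGF receptor Egfr by 0.45 ± 0.05 (limma adjusted p = 4.19e-06), Met by 0.70 ± 0.10 (4.48e-05) and Cd44 as above, and the median of the 5 was 0.45. Of the 10 other connective tissue markers 4 rose and none fell, with a median of 0.08. They were the chemokine Cxcl12, by 0.67 ± 0.08 (limma adjusted p = 4.63e-06), Pdgfra, by 0.62 ± 0.15 (0.00546), Cd34, by 0.32 ± 0.07 (0.00282), and Igfbp5, by 0.29 ± 0.09 (0.0238). For genes with several probe sets these values are of the one with the highest mean signal. Averaged over a gene's probe sets, the rise was 0.22 for Egfr, 0.32 for Tgfbr2 and 0.35 for Cxcl12, each still past the threshold. The deviations of Pdgfra followed those of Grifin with r = 0.74 and those of Met ran against them (r = -0.54), and the part of lens signal in their rise was not tested. Of the 4 connective tissue markers only Igfbp5 had an r above 0.5 with the members' deviations, and Cxcl12 had 0.34, Pdgfra 0.07 and Cd34 0.00. In the same comparison 4 of 6 microglia and macrophage markers and 4 of 5 Müller glia and astrocyte markers rose, and the part of other cells in any list was not tested.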

How the data were processed

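RNA from 24 retina samples was labelled and hybridised to an Affymetrix array of glycan-related genes. The authors deposited log2 values made with RMA, per the submitters' processing notes; its steps and version are not given in the sources used here, and the log base was checked on the values (1.90 to 14.17). Nothing was rescaled. Names came from the transcript accession of each probe set, matched to RefSeq: 963 probe sets matched 909 genes, 283 stayed unnamed, and genes with several probe sets were shown by that with the highest mean.

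Groups were fitted in R 4.3.3 with limma 3.58.1 (lmFit and eBayes with default settings, a mean for each of 8 groups, 16 residual and 4.37 prior degrees of freedom), after tests on simulated data. All 1246 probe sets were tested, 2-sided, with Benjamini-Hochberg adjustment within each comparison and a threshold of 0.05. Sums of squares and correlations used deviations from group means. The number of arrays limits the precision.

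Named genes are the members, up to 4 genes of each list by smallest p, the 5 most alike per member, and Grifin; genes above the stated r, called genes of a small list, and genes set beside both high arrays were added after their values were seen. Members and lists were chosen with earlier results of these data known.

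Alternatives were other scaling (arrays centred or quantile normalized), filters at the 25th percentile (3.83) and the median (5.26) of mean signal, an intensity trend with robust prior, array weights, only the arrays compared, the replicate number as a block, arrays with high Grifin left out, Grifin or other members as covariates, a threshold of 0.01, an exact permutation test, and each array left out. After seeing the data 5 were added: without the 2-month arrays, without both high normal arrays of 2 months (for the fits and for the correlations), the 2-month arrays alone with the block, and the number over all ages as a block. Same-numbered mutant and normal arrays deviated together over probe sets (r above 0.1) in 3 of 12 pairs, all at 2 months (0.25 to 0.66). Some arrays of unlike number did so too, at 2 months (0.12 and 0.16) and at 3 months (0.14 to 0.15). The highest r, 0.66, was that of replicate 2 of both genotypes at 2 months, arrays of high Grifin signal. The labels do not say that numbers pair arrays, so a pairing was not shown.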

Additional observations from a re-analysis of the deposited data

How the results depend on the processing

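Of the 4 genes' differences, those not named here kept their direction and side of the threshold in the alternatives other than leaving out single arrays, apart from 3 calls given in the report (Dcn at 2 months in the paired fit, Fmod in mutant retinas over age, and Fmod over the 4 ages) and Dcn at 2 months with array weights (-1.66, limma adjusted p = 0.0427). None of the differences whose signs turned passed with the settings of the report. With array weights Dcn at 4 months was at -0.034, with the mean of Dcn and Lum as a covariate Bgn was at 0.0083 at 2 months and -0.017 at 4 months, with Lum as a covariate Dcn was at -0.10 at 3 months and -0.33 at 4 months, and with Dcn as a covariate Lum was at -0.038 at 1 month and -0.058 over age in mutant retinas. Without the 2-month arrays Dcn was at 0.42 and Fmod at 0.44 (limma adjusted p = 0.0370) over the ages, and without both high normal arrays of 2 months they were at 0.29 and 0.45 (0.0305), and Lum, Bgn and Fmod at 2 months were at 0.16, 0.14 and 0.45. That last fit leaves 1 normal array of 2 months, assumed to vary like the other groups. With single arrays left out, differences ranged from -0.088 to 0.14 for Lum at 1 month, -0.44 to 0.68 for Dcn, -0.0083 to 0.25 for Bgn and -0.086 to 0.50 for Fmod at 4 months, -0.24 to 0.059 for Dcn, -0.027 to 0.12 for Lum and -0.017 to 0.12 for Bgn over the ages, and -0.045 to 1.08 for Dcn over age in mutant retinas. Correlations ranged from 0.22 to 0.67 for Dcn and Fmod, 0.40 to 0.80 for Lum and Fmod and 0.48 to 0.79 for Bgn and Fmod. Without the arrays of high Grifin r was 0.77 for Lum and Fmod (permutation p = 0.113) and 0.81 for Bgn and Fmod (0.0541), without both high arrays 0.36 and 0.40, and on raw signals 0.72 for Dcn and Fmod. The r without both high arrays equal those without normal replicates 1 and 3 of 2 months. Either choice removes all deviations of that group, so they are not separate checks. The count of probe sets called at 1 month (4) was 10 with centred arrays, 8 with quantile normalization, 7 with the filter at the 25th percentile, 52 with array weights, 28 with only the arrays compared and 7 with the replicate block, and 3 to 13 with single arrays left out. That at 2 months (43) was 68 with weights, 2 with only the arrays compared, 16 in the paired fit of that age, 1 without the arrays of high Grifin, 10 with Dcn and Lum as covariate, 13 at 0.01 and 0 without both high arrays, and 14 (without normal replicate 3 of 2 months) to 62 (without normal replicate 1) with single arrays left out. At 3 months (150) it was 40 with only the arrays compared, 50 at 0.01 and 66 (without mutant replicate 3 of 3 months) to 168 with single arrays left out, and at 4 months (161) 103, 91 and 107 (without normal replicate 3 of 4 months) to 179. Over the ages (282) it was 150 at 0.01. For age in normal retinas (0) it was 26 with weights and 1 with only the arrays compared, and in mutant retinas (33) 94 with weights, 6 at 0.01 and 9 to 45 with single arrays left out. For the change of the difference with age (4) it was 51 with weights, 1 without the 2-month arrays, and 0 with the replicate block, without the arrays of high Grifin, with Dcn and Lum as covariate, at 0.01 and without both high arrays, and 0 to 31 (without normal replicate 1 of 2 months) with single arrays left out. Outside 2 months the replicate block changed no call of the 4 genes. The filters removed Lum, and at the median also Dcn, so these have no value there. The cause of these shifts was not tested. With 3 arrays a group, differences of the members within their intervals are compatible with the values, and the low signal of Lum cannot be set against a background.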
